A study of Mus musculus with 9 samples.

Results

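The genes of the endoplasmic reticulum (ER) unfolded protein response described here were Hspa5, Hsp90b1, Hyou1, Pdia4, Sdf2l1, Manf, Creld2, Xbp1, Atf4 and Ddit3, found in the files by gene symbol. All 10 were listed for every mouse, out of 24532 genes listed, and all 10 were among the 14370 genes tested, those with a mean of 30 reads or more over the mice. RNA came from the medial prefrontal cortex (mPFC) of C57BL/6 mice (C57BL/6J in the study's methods) labelled 11-week-old, in 3 groups with 3 libraries each. CT mice were wild type and unstressed, WT_ST mice were wild type and stressed, and KO_ST mice were Fkbp5-/- and stressed. By the study's methods the mice were males from matings of heterozygous parents, stress was daily immobilization in a latex glove over weeks, and CT mice also went without food and water while the others were restrained. Fkbp5-/- is a germline knock-out present in every cell, and no unstressed Fkbp5-/- group was part of the series, so in KO_ST against CT the genotype and the stress cannot be told apart. In KO_ST against WT_ST, a genotype difference already present without stress and a changed response to stress cannot be told apart either. The labels number the 3 libraries of a group without saying whether each came from 1 animal, so the p-values measure the spread between these libraries, each called a mouse below.

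Proteins that enter the secretory pathway fold in the ER with the help of chaperones and disulfide isomerases. When unfolded protein accumulates, the membrane sensors IRE1, PERK and ATF6 are released from the chaperone encoded by Hspa5. IRE1 splices Xbp1 mRNA, PERK slows translation and favours that of Atf4, and ATF6 is cut to a transcription factor, and together these factors raise the transcription of chaperones, of protein degradation at the ER and, when stress persists, of Ddit3. Neurons carry a heavy secretory load of receptors, channels and adhesion molecules, and FKBP5, a co-chaperone of cytosolic HSP90 that lowers the sensitivity of the glucocorticoid receptor, acts outside the ER.

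Depth lay between 43778471 and 61150128 reads on genes per mouse, with medians of 53134628 reads in CT, 48395383 in WT_ST and 45675214 in KO_ST. Fkbp5 stood at 6.46 to 7.61 FPKM in CT, 9.47 to 10.25 in WT_ST and 3.59 to 4.69 in KO_ST (FPKM counts fragments scaled by transcript length and library size, a level per length), so the 3 KO_ST mice were the lowest but not without reads. The files do not show which exons were removed. Markers of cortical excitatory neurons were present at similar summed levels in the 3 groups (1442 to 1562 FPKM over 5 genes), though Camk2a, one of the 5, was lower in both stressed groups than in CT without overlap (log2 fold changes -0.10 and -0.14, not called) and 4 of the 5 had higher estimates in WT_ST than in CT. The 4 pan-neuronal markers summed to 1753 to 2157 FPKM in CT, 2209 to 2388 in WT_ST and 2265.6 to 2372 in KO_ST, so both stressed groups were above CT without overlap. All 4 had higher estimates than in CT in both (median log2 fold changes 0.14 and 0.18), 0 of them passed the call defined below, and their part in the levels of the 10 genes was not tested. Of the other lists, the 5 choroid plexus markers were each under 1 FPKM on average. Microglia markers were at 76.6 to 97.0 FPKM in CT, 59.8 to 66.6 in WT_ST and 33.7 to 66.5 in KO_ST, and 4 of the 5 (Cx3cr1, P2ry12, Tmem119 and Csf1r) were lower than in CT in both stressed groups by the call defined below, P2ry12 also in KO_ST against WT_ST. The other, Aif1, had log2 fold changes of -0.09 in WT_ST against CT, 0.06 in KO_ST against CT and 0.15 in KO_ST against WT_ST. Of all tested genes, 2.47%, 3.56% and 2% passed that call in either direction in the same order. In a bulk tissue, fewer cells of a type and less RNA per cell cannot be told apart.

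By mean level over the 9 mice, the 10 genes were ordered Hsp90b1 (116 FPKM), Hspa5 (83.8), Atf4 (56.9), Hyou1 (28.9), Xbp1 (26.3), Ddit3 (17.5), Manf (12.8), Pdia4 (12.6), Creld2 (9.0) and Sdf2l1 (7.48). Neighbours Manf and Pdia4 overlapped between mice, as did Creld2 and Sdf2l1, and so did Hyou1 and Xbp1, whereas the other neighbours in this order did not overlap and every mouse held more Hsp90b1 than any mouse held Hspa5. Hsp90b1 stood at percentile 96.2 of the tested genes and Sdf2l1 at percentile 47.5. Sdf2l1 varied most, with a highest mouse 1.99 times the lowest and a coefficient of variation of 15.4% to 20.5% within groups, against 4.88% from read counting alone. Hyou1 varied least, with a highest mouse 1.08 times the lowest.

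**Figure D1:**
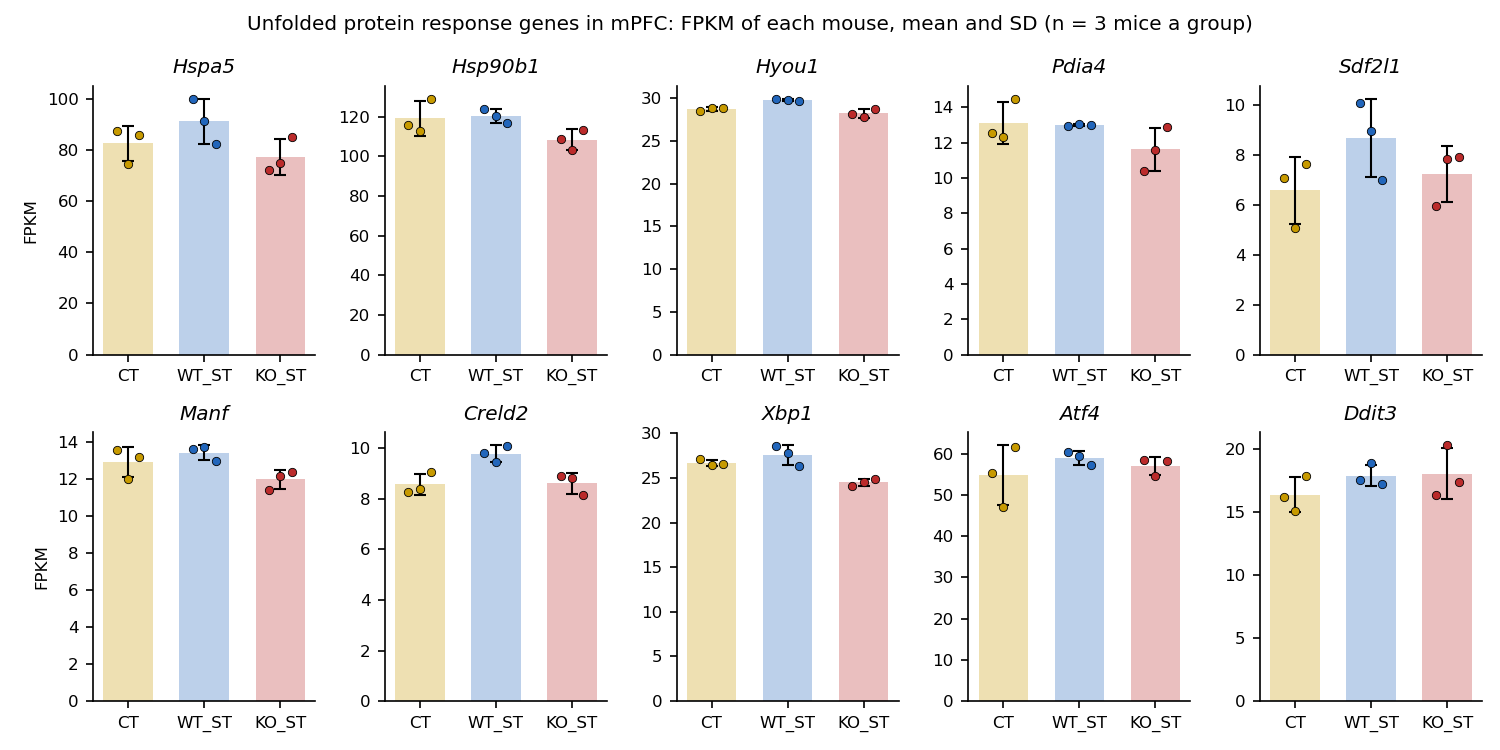
FPKM (vertical axis, from 0 in each panel) of the 10 genes in CT, WT_ST and KO_ST. Points are single mice, bars are means and error bars are SD (n = 3 mice a group). Creld2 and Hyou1 were higher in the 3 WT_ST mice than in every CT mouse, Xbp1 was lower in the 3 KO_ST mice than in every other mouse, and the other panels show overlap between CT and the stressed groups.

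None of the 10 genes passed the call, an unadjusted p under 0.05 with a fold change over 1.2 in limma, in WT_ST against CT, in KO_ST against CT or in KO_ST against WT_ST. Of all tested genes, 2.47%, 3.56% and 2% passed it in the same order. No gene of the 10 had a Benjamini-Hochberg adjusted p under 0.05 either, and 5, 9 and 22 of the 14370 tested genes (0.0348%, 0.0626% and 0.153%) did. At an unadjusted p under 0.05 alone, 1 of the 10 was counted in WT_ST against CT (Creld2, higher), 1 in KO_ST against CT (Xbp1, lower) and 5 in KO_ST against WT_ST (Hspa5, Hsp90b1, Manf, Creld2 and Xbp1, all lower). The shares of all tested genes at that threshold were 7.86%, 9.46% and 5.82%, and 3.15% were lower in KO_ST than in WT_ST. In DESeq2 the 5 became 3, and with the replicate number added to the limma fit as a block they became 2. Leaving out single mice gave 2 (without WT_ST replicate 1), 3 (without WT_ST replicate 2) and 3 (without KO_ST replicate 1). The 1 gene in WT_ST against CT became 4 without CT replicate 3 and 2 without WT_ST replicate 3, and the 1 in KO_ST against CT (Xbp1) was lost in each of the 6 fits without a mouse, while Hsp90b1 had p under 0.05 there without CT replicate 2.

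The differences were small and mostly ran with WT_ST at the top. The limma estimate was higher in WT_ST than in CT for 10 of 10 genes, with a median log2 fold change of 0.09, where 51.3% of all tested genes were higher and their median was 0.00. It was lower in KO_ST than in WT_ST for 9 of 10 genes, with a median of -0.14, where 50.7% of all tested genes were lower. The exception was Ddit3, at 0.02. Between KO_ST and CT, 4 genes were higher and 6 lower, with a median of -0.05, where 51% of all tested genes were higher. WT_ST held the highest group mean on the normalized log2 scale for 9 of the 10 genes, all but Ddit3, and for 30.8% of tested genes. The order WT_ST, CT, KO_ST held for 6 genes and for 13.3% of tested genes. Pdia4 was counted in the 10, in the 9 with WT_ST highest and in the 6. Its estimate in WT_ST against CT was 0.00, and its mean FPKM was 13.1 in CT and 13.0 in WT_ST. The 3 comparisons share their groups, so a high mean in WT_ST enters both WT_ST against CT and KO_ST against WT_ST, and the 10 genes are not independent of each other.

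**Figure D2:**
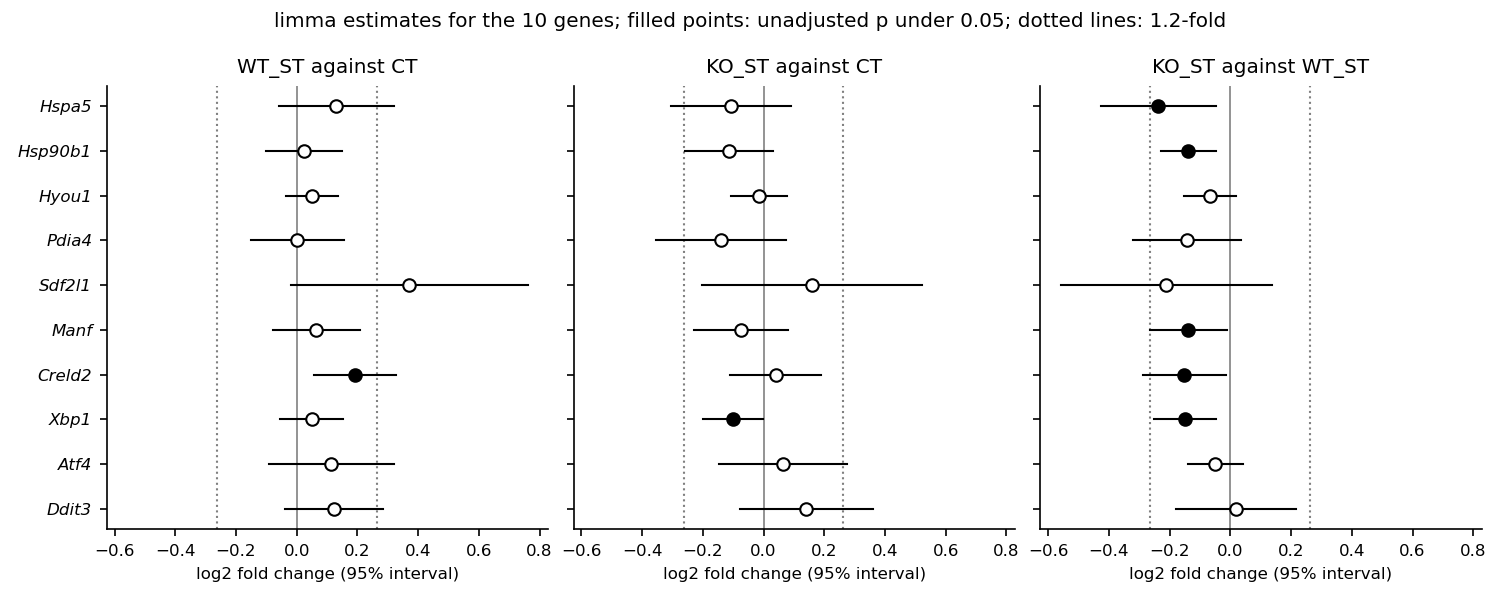
limma log2 fold changes (horizontal axis) of the 10 genes in the 3 pairwise comparisons of groups of 3 mice, with 95% intervals as lines. Filled points have an unadjusted p under 0.05 and dotted lines mark a 1.2-fold difference. Estimates in KO_ST against WT_ST lie left of 0 for all genes but Ddit3, and the intervals of Sdf2l1 are the widest.

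The intervals bound what could have been missed. In each pairwise comparison the 95% interval of every one of the 10 genes lay within a 2-fold difference in either direction, and within a 1.5-fold difference for all but Sdf2l1 in WT_ST against CT, whose interval ran from -0.02 to 0.76 on the log2 scale. A fold of 1.2 lay inside the interval of 5 of the 10 genes in each of these comparisons.

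Of the 5 chaperones and folding cofactors, Hspa5 encodes BiP, the HSP70-class chaperone of the ER, and lies at chr2:34771970-34777547 on the plus strand (gene ID 14828, GRCm38, GENCODE M21, as for all gene positions below, where all 10 are protein coding). Hspa5 was at 87.5, 74.7 and 85.8 FPKM in the CT mice, 100.1, 91.4 and 82.5 in WT_ST and 72.1, 74.9 and 85.4 in KO_ST. The highest mouse was a WT_ST mouse and the lowest a KO_ST mouse, but all 3 groups overlapped. The log2 fold change was 0.13 ± 0.08 (SE, adjusted p = 0.709, limma) in WT_ST against CT and -0.24 ± 0.08 (adjusted p = 0.812) in KO_ST against WT_ST. The latter is 0.848-fold, short of the fold threshold, and it passed both thresholds without WT_ST replicate 3 (-0.30) or without KO_ST replicate 3 (-0.31). The p was under 0.05 in 2 of the 6 fits that left out a mouse and in 8 of 9 other settings.

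Hsp90b1 encodes GRP94, the HSP90-class chaperone of the ER (gene ID 22027, chr10:86690209-86705509, minus strand). Its levels were 115.7, 112.8 and 129.1 FPKM in CT, 124.0, 120.5 and 116.9 in WT_ST and 109.0, 103.1 and 113.4 in KO_ST. Every KO_ST mouse was below every WT_ST mouse, while CT spanned both. Non-overlap in that direction was seen for 6 of the 10 genes between KO_ST and WT_ST (Hsp90b1, Hyou1, Pdia4, Manf, Creld2 and Xbp1) and for 6.76% of tested genes. The Hsp90b1 log2 fold change was -0.14 ± 0.04 (adjusted p = 0.701, limma) in KO_ST against WT_ST, with p under 0.05 in 6 of 6 fits without a mouse and in 9 of 9 other settings. In WT_ST against CT it was 0.02 ± 0.05 and turned to -0.02 without CT replicate 2. By GENCODE, 415 of the 4032 exonic bases of Hsp90b1 also lie in the pseudogene 1810014B01Rik on the opposite strand, and the strand setting of the counting was not given in the sources used here.

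Hyou1 encodes GRP170, a nucleotide exchange factor for BiP (gene ID 12282, chr9:44379490-44392369, plus strand). The CT mice were at 28.6, 28.9 and 28.9 FPKM, the WT_ST mice at 29.9, 29.9 and 29.7 and the KO_ST mice at 28.2, 27.8 and 28.8. The 3 WT_ST mice were the highest of the 9, by a narrow margin. Between WT_ST and CT, Hyou1 and Creld2 were the only 2 of the 10 genes whose groups did not overlap, both higher in WT_ST, as for 6.03% of tested genes. The log2 fold changes of Hyou1 were 0.05 ± 0.04 (adjusted p = 0.748) in WT_ST against CT and -0.07 ± 0.04 (adjusted p = 0.899) in KO_ST against WT_ST in limma.

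Pdia4 encodes ERp72, a protein disulfide isomerase (gene ID 12304, chr6:47796141-47813430, minus strand). It was at 12.5, 12.3 and 14.5 FPKM in CT, 12.9, 13.1 and 13.0 in WT_ST and 10.4, 11.6 and 12.9 in KO_ST. KO_ST mice lay below WT_ST mice without overlap, but spread over 1.24 FPKM (SD) where WT_ST mice spread over 0.0720. The log2 fold change was -0.14 ± 0.08 (adjusted p = 0.899, limma) in KO_ST against WT_ST. In WT_ST against CT the estimate of 0.00 had no stable sign, and it was negative in 4 of the 9 other settings.

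Sdf2l1 encodes an ER protein that works with the BiP co-chaperone ERdj3 (gene ID 64136, chr16:17130138-17132383, minus strand). It rested on 295 to 563 reads a mouse, the fewest of the 10 genes. CT mice were at 7.06, 5.05 and 7.60 FPKM, WT_ST mice at 10.07, 8.95 and 6.98 and KO_ST mice at 5.94, 7.82 and 7.89. Mice 1 and 2 of WT_ST were the highest of all, and WT_ST replicate 3 fell inside the CT range. Its log2 fold change in WT_ST against CT, 0.37 ± 0.17 (adjusted p = 0.643, limma), was the largest among the 10 genes. It passed both thresholds without CT replicate 3 (0.46) or without WT_ST replicate 3 (0.51), and in DESeq2 on the read counts (0.41), but was 0.22 without CT replicate 2 and 0.26 without WT_ST replicate 1. In KO_ST against WT_ST it was -0.21 ± 0.15 (adjusted p = 0.940, limma), and -0.35 without WT_ST replicate 3, which passed both thresholds, but -0.10 without WT_ST replicate 1 and -0.09 without KO_ST replicate 1.

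The promoters of Hspa5, Hsp90b1 and Creld2 are shown because they alone, of the 8 of these genes with an entry in the RefSeq promoter table (GRCm38.p6), held the ER stress response element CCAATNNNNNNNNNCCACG, the motif bound by cleaved ATF6 with NF-Y. Hyou1 and Manf had no entry. The windows are the 250 bases before the RefSeq start, at chr2:34771840-34772089 on the plus strand for Hspa5, chr10:86705445-86705694 on the minus strand for Hsp90b1 and chr15:88819396-88819645 on the plus strand for Creld2, written 5′ to 3′ along the gene, with the matches in capitals. The GENCODE genes Hspa5 and Hsp90b1 start upstream of the RefSeq starts, inside these windows.
Hspa5: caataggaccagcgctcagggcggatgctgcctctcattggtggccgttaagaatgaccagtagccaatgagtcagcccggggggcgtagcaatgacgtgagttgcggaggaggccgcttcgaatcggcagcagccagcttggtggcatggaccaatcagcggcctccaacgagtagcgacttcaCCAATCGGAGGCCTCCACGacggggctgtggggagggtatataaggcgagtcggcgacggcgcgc
Hsp90b1: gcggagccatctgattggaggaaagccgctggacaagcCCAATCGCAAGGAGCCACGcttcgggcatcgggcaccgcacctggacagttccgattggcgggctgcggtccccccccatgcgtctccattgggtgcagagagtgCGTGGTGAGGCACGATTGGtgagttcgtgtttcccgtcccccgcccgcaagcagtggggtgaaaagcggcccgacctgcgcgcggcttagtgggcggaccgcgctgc
Creld2: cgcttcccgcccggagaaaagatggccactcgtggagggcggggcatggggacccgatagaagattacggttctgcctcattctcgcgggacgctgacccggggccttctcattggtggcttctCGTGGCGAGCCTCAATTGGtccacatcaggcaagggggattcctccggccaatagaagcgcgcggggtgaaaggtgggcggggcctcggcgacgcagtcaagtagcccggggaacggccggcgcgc
The match in Hspa5 lay 65 to 47 bases before the start. Hsp90b1 held a match 212 to 194 bases before its start and another, read on the opposite strand, at 107 to 89 bases, and the match of Creld2 at 126 to 108 bases also read on the opposite strand. Both strands were searched, and 37 of 32851 RefSeq promoters (0.113%) held the motif. The 8 promoters held no match to the second form of the element (ATTGG, any base, then CCACG, in 0.0304% of promoters), TGACGTGG (the core bound by XBP1, in 0.563%) or TTGCATCA (the C/EBP-ATF composite core, in 0.791%), which says only that these letters were not in these windows. The 3 genes with the element were 3 of the 5 with p under 0.05 in KO_ST against WT_ST, and Manf, with no promoter entry, and Xbp1 were the others. Whether the element goes with that difference was not tested.

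Manf and Creld2 encode proteins of the ER that can be secreted. Manf, a neurotrophic factor (gene ID 74840, chr9:106838312-106891979, minus strand), was at 13.5, 11.99 and 13.2 FPKM in CT, 13.6, 13.7 and 13.0 in WT_ST and 11.4, 12.2 and 12.3 in KO_ST. The KO_ST mice were below every WT_ST mouse and overlapped CT. The log2 fold change was -0.14 ± 0.05 (adjusted p = 0.830, limma) in KO_ST against WT_ST, with p under 0.05 in 3 of 6 fits without a mouse and in 7 of 9 other settings.

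Creld2, which is induced by ER stress (gene ID 76737, chr15:88819646-88826683, plus strand), was at 8.28, 8.40 and 9.05 FPKM in CT, 9.83, 9.45 and 10.1 in WT_ST and 8.91, 8.82 and 8.15 in KO_ST. All 3 WT_ST mice were above all 6 other mice, and CT and KO_ST overlapped. The log2 fold change in WT_ST against CT was 0.19 ± 0.06 (adjusted p = 0.630, limma), a 1.14-fold difference, with p under 0.05 in 6 of 6 fits without a mouse and in 9 of 9 other settings. In KO_ST against WT_ST it was -0.15 ± 0.06 (adjusted p = 0.830), which held p under 0.05 in 3 of 6 fits without a mouse and in 5 of 9 other settings. The difference between KO_ST and CT was 0.04 ± 0.06 (adjusted p = 0.866, limma).

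Among the transcription factors, Xbp1 (gene ID 22433, chr11:5520659-5525893, plus strand) is the target of IRE1 splicing. The files give a single total for the gene, so the spliced and unspliced forms were not separated. Xbp1 was at 27.1, 26.5 and 26.5 FPKM in CT, 28.6, 27.7 and 26.4 in WT_ST and 24.1, 24.6 and 24.9 in KO_ST. The 3 KO_ST mice were the lowest of the 9, and CT overlapped WT_ST. Xbp1 was the only 1 of the 10 genes whose groups did not overlap between KO_ST and CT, where 10.6% of tested genes were lower without overlap. The log2 fold change was -0.15 ± 0.04 (adjusted p = 0.706, limma) in KO_ST against WT_ST, with p under 0.05 in 6 of 6 fits without a mouse and in 9 of 9 other settings, and -0.10 ± 0.04 (adjusted p = 0.523) in KO_ST against CT, with p under 0.05 in 0 of 6 and 5 of 9.

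Atf4, which is controlled mainly at translation (gene ID 11911, chr15:80255184-80257541, plus strand), was at 55.3, 47.2 and 61.7 FPKM in CT, 60.5, 59.4 and 57.2 in WT_ST and 58.4, 54.5 and 58.2 in KO_ST. The CT mice held both the lowest and the highest value. Its log2 fold changes were 0.11 ± 0.09 (adjusted p = 0.759) in WT_ST against CT, 0.06 ± 0.09 (adjusted p = 0.834) in KO_ST against CT and -0.05 ± 0.04 (adjusted p = 0.940) in KO_ST against WT_ST by limma. Without CT replicate 2 the difference between KO_ST and CT was -0.04.

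Ddit3 encodes CHOP, a factor tied to cell death under lasting ER stress (gene ID 13198, chr10:127290829-127293753, plus strand). It was at 16.2, 15.1 and 17.9 FPKM in CT, 17.6, 18.9 and 17.3 in WT_ST and 16.4, 20.3 and 17.4 in KO_ST. The highest mouse was KO_ST replicate 2 and the groups overlapped throughout. The log2 fold changes were 0.12 ± 0.07 (adjusted p = 0.686) in WT_ST against CT, 0.14 ± 0.09 (adjusted p = 0.659) in KO_ST against CT and 0.02 ± 0.08 (adjusted p = 0.986) in KO_ST against WT_ST by limma, and the last turned to -0.07 without KO_ST replicate 2.

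With both stressed groups set together against CT, 0 of the 10 genes passed the call, against 2.67% of tested genes, and 0 had an adjusted p under 0.05, against 0.0278%. Creld2 alone had p under 0.05 (log2 fold change 0.12 ± 0.05, adjusted p = 0.416, limma, 11.6% of tested genes), and it held p under 0.05 in 3 of 9 fits without a mouse and in 3 of 8 other settings. Sdf2l1 had the largest estimate, 0.27 ± 0.14 (adjusted p = 0.509, limma), and it passed both thresholds without WT_ST replicate 3 (0.33) or without KO_ST replicate 1 (0.33), but was 0.12 without CT replicate 2. The median over the 10 genes was 0.01, with 6 higher and 4 lower.

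The mice were also read one by one, each gene against its own mean over the 9 mice on the normalized log2 scale. WT_ST replicates 1 and 2 were above the mean for 10 of 10 genes and WT_ST replicate 3 for 7. CT replicate 2 and KO_ST replicate 1 were above it for 1 gene each, Xbp1 in the former and Atf4 in the latter. CT replicate 3 was above it for 7 genes, CT replicate 1 for 4, KO_ST replicate 2 for 3 and KO_ST replicate 3 for 5. The median deviation over the 10 genes was -0.01, -0.10 and 0.02 in the CT mice, 0.08, 0.08 and 0.02 in WT_ST and -0.10, -0.04 and 0.00 in KO_ST. CT replicate 3 thus stood level with WT_ST replicate 3, and CT replicate 2 level with KO_ST replicate 1.

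**Figure D3:**
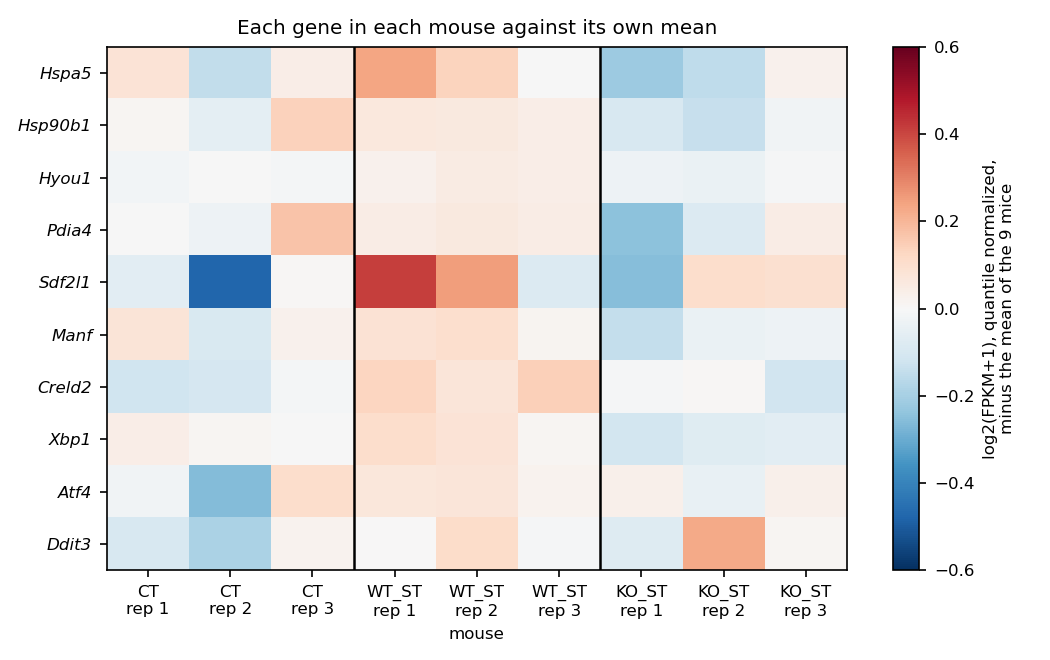
Deviation of each of the 10 genes (rows) in each mouse (columns) from its mean over the 9 mice, in quantile-normalized log2(FPKM+1), red above and blue below. WT_ST replicates 1 and 2 are above the mean in every row, CT replicate 2 and KO_ST replicate 1 in 1 row each, and the darkest cells belong to Sdf2l1.

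Pairs of the 10 genes varied together to different degrees across the 9 mice. Over 45 pairs the median Pearson r was 0.49, and 0.31 after each group's mean was subtracted. For 12 pairs r was above 0.7. Hspa5 and Manf were the closest pair (r = 0.919, exact permutation p = 0.000606, and Spearman rho = 0.950, exact permutation p = 0.000353). Adjusted over the 45 pairs, the exact permutation p was 0.0273 for r and 0.00794 for rho, r was 0.890 without the 2 mice farthest from the median of Hspa5, and it was 0.845 within groups. Hsp90b1 and Pdia4 followed with r = 0.837 (exact permutation p = 0.00341, adjusted 0.0766) and rho = 0.950 (exact permutation p = 0.000353, adjusted 0.00794), with r = 0.820 without the 2 mice farthest from the median of Hsp90b1. Xbp1 and Ddit3 had the lowest r, -0.08. The r of Hspa5 was above 0.7 with Hsp90b1, Pdia4, Sdf2l1, Manf and Xbp1, and 0.137 with Ddit3.

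**Figure D4:**
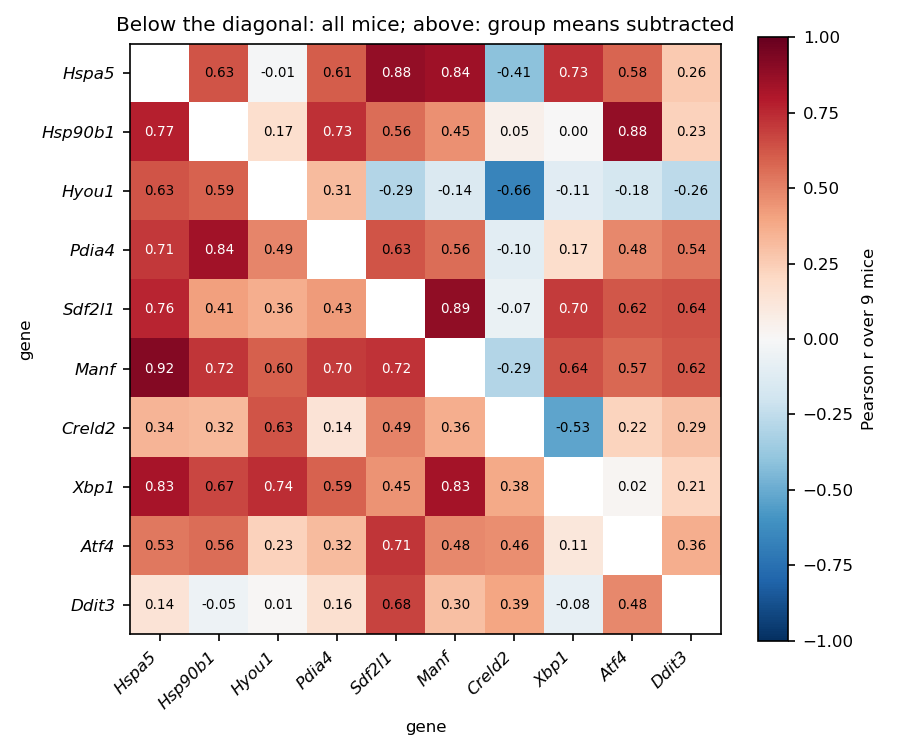
Pearson r over 9 mice for each pair of the 10 genes (rows and columns), from normalized log2(FPKM+1). Values below the diagonal use all mice as they are, values above it have each group's mean subtracted, and Hspa5 with Manf is high in both (0.92 and 0.84).

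Of the 14360 tested genes outside the 10, those whose pattern over the 9 mice was most like that of Hspa5 were Park7 (r = 0.956), a redox-sensitive protein, Pdia6 (r = 0.948), an ER disulfide isomerase, Ube2q1 (r = 0.948), a ubiquitin-conjugating enzyme, Mpc1 (r = 0.943), a mitochondrial pyruvate carrier, and Dnajb11 (r = 0.928), the BiP co-chaperone ERdj3. Among the 10, Manf was nearest to Hspa5 and only 10 other genes had a higher r. For Xbp1, 76 other genes had a higher r, for Hsp90b1 198 and for Ddit3 5632. These likenesses are descriptions over 9 mice that share groups and depth.

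The wider pathway was read from lists of 79 further genes, all in the files, of which 76 were tested and Kdelr3, Trib3 and Atf3 averaged under 30 reads. The estimates of the sensors were small. Ern1, which encodes IRE1, had log2 fold changes of -0.10 ± 0.16 in WT_ST against CT and 0.00 ± 0.16 in KO_ST against CT, Eif2ak3 (PERK) had 0.02 ± 0.06 and 0.02 ± 0.07, and Atf6 had 0.10 ± 0.09 and 0.05 ± 0.08. None of the 6 sensor and protease genes had p under 0.05 in limma in any pairwise comparison, where 7.86%, 9.46% and 5.82% of tested genes did. Estimates were higher than in CT for 3 of the 6 in WT_ST and 5 in KO_ST (51.3% and 51% of tested genes). Atf6b was lower than in CT without overlap in both stressed groups (-0.09 in each). In KO_ST against CT, 10.6% of tested genes were lower without overlap.

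In WT_ST against CT, 1 of the 76 genes passed the call, where 2.47% of tested genes did. This was Canx, which encodes calnexin, a lectin chaperone of the ER membrane. Canx was at 49.7, 65.8 and 50.4 FPKM in CT, 80.05, 76.4 and 75.9 in WT_ST and 80.3, 73.4 and 53.5 in KO_ST. All WT_ST mice were above all CT mice, and the log2 fold change was 0.48 ± 0.11 (adjusted p = 0.542, limma), from 0.41 to 0.62 and called in 6 of 6 fits without a mouse. At p under 0.05 alone, 5 of the 76 were higher and 0 lower, where 3.92% of tested genes were higher. The other 4 were Calr (the lectin chaperone calreticulin, 0.16), Sec61b and Sec61g (subunits of the translocation channel, 0.16 each) and Atf5 (a transcription factor, 0.18). They were named after their values were seen.

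In KO_ST against WT_ST, 1 of the 76 passed the call, where 2% of tested genes did. This was Derl3, a factor of ER-associated degradation, which fell by 0.28 on the log2 scale (adjusted p = 0.670, limma). Derl3 was under 1 FPKM in each mouse, with 0.742 to 0.923 in WT_ST and 0.485 to 0.610 in KO_ST, and was not tested where a mean of at least 1 FPKM was required. The call was lost without WT_ST replicate 1 (-0.25), WT_ST replicate 2 (-0.26) or KO_ST replicate 3 (-0.25). At p under 0.05 alone, 7 of the 76 were lower and 0 higher, where 3.15% of tested genes were lower. Besides Derl3 these were Calr (-0.15), Pdia3 (-0.13), Pdia6 (-0.16), Dnajb11 (-0.13), Sec61b (-0.18) and Ssr3 (-0.10), again named after their values were seen. These are folding enzymes and chaperones, a channel subunit and a translocon-associated protein. Groups did not overlap, lower in KO_ST, for 10 of the 76 genes and for 6.76% of all tested genes. The median of the 76 was -0.01, with 35 higher and 41 lower. The ER stress response element was in 7 of the 64 wider-list promoters in the table (Calr, Canx, Derl3, Dnajc3, Ero1b, Pdia6 and Syvn1). Of these, Calr, Derl3 and Pdia6 had p under 0.05 in limma in KO_ST against WT_ST. Canx, Dnajc3, Ero1b (Ero1lb in the files) and Syvn1 did not.

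In KO_ST against CT, 1 of the 76 passed the call, where 3.56% of tested genes did. At p under 0.05 alone, 4 of the 76 were higher and 3 lower, where 9.46% of tested genes passed in either direction. The gene that passed the call was Slc3a2, a subunit of amino acid transporters and a target of ATF4. Slc3a2 was at 46.8, 36.3 and 36.6 FPKM in CT, 38.0, 47.5 and 46.7 in WT_ST and 47.2, 51.0 and 48.7 in KO_ST. Its log2 fold change was 0.30 ± 0.10 (adjusted p = 0.499, limma), and the call was lost without CT replicate 2 (0.25), CT replicate 3 (0.24) or KO_ST replicate 2 (0.27). The list of the PERK and ATF4 arm, which includes amino acid synthesis and transport genes, had 15 of 20 tested genes higher in WT_ST than in CT (median 0.08) as had KO_ST against CT (15 of 20, median 0.07), and 14 of 20 higher in KO_ST than in WT_ST (median 0.02). By limma 1 gene of this list had p under 0.05 in WT_ST against CT (Atf5), 3 in KO_ST against CT (Chac1, Asns and Slc3a2), all higher, and 0 in KO_ST against WT_ST, where 7.86%, 9.46% and 5.82% of tested genes did, and 51.3% and 51% of tested genes had higher estimates than in CT in WT_ST and KO_ST, while 50.7% had lower estimates in KO_ST than in WT_ST.

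**Figure D5:**
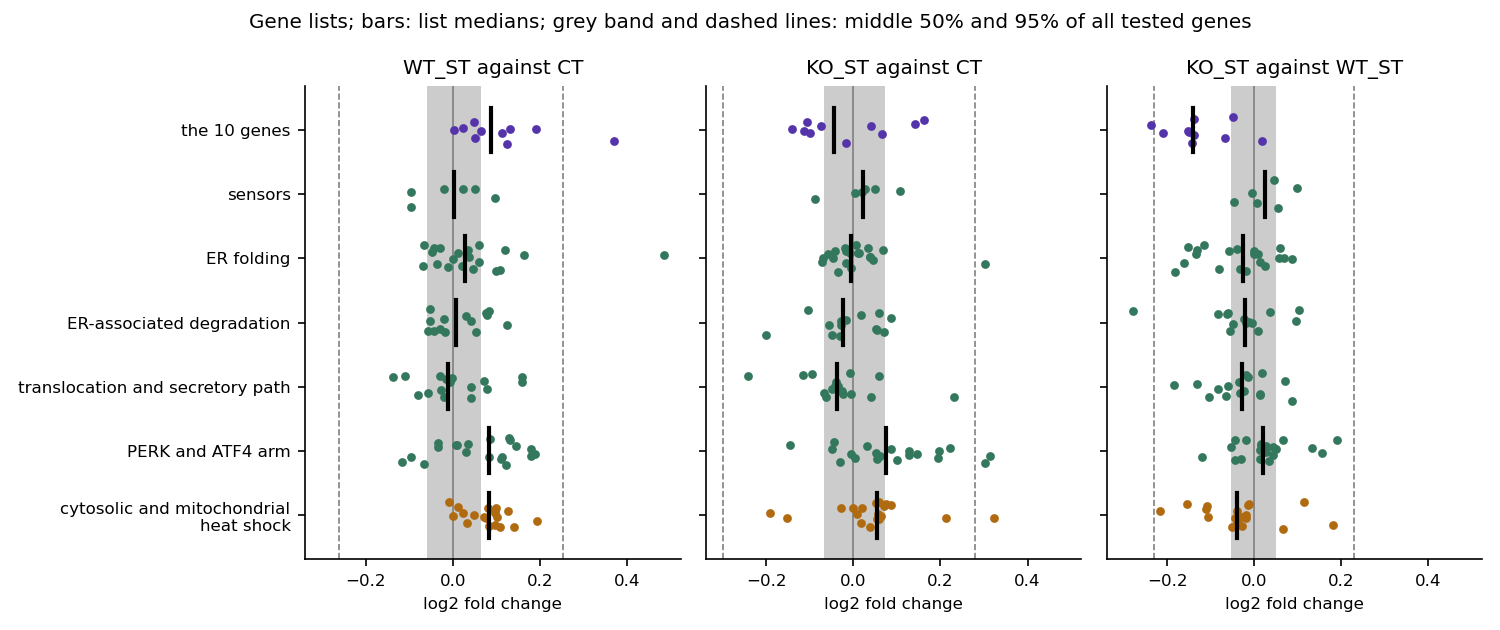
limma log2 fold changes (horizontal axis) of the tested genes of each list in the 3 pairwise comparisons. Points are genes, black bars are list medians, the grey band holds the middle 50% and the dashed lines the middle 95% of all tested genes, and the median of the 10 genes lies at 0.09, -0.05 and -0.14 from left to right.

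Chaperones outside the ER were taken as a comparison list of 19 cytosolic and mitochondrial heat shock genes. None passed the call in a pairwise comparison, where 2.47%, 3.56% and 2% of tested genes did in WT_ST against CT, KO_ST against CT and KO_ST against WT_ST. In limma 18 of the 19 were higher in WT_ST than in CT (median 0.08, 51.3% of all tested genes higher), 15 in KO_ST than in CT (median 0.05, 51%) and 16 were lower in KO_ST than in WT_ST (median -0.04, 50.7% of all tested genes lower). At p under 0.05 alone, Chordc1 and Stip1 were higher in WT_ST than in CT, Dnajb1 was lower in KO_ST than in CT, and Dnajb1 and Stip1 were lower in KO_ST than in WT_ST, where 7.86%, 9.46% and 5.82% of tested genes passed in either direction. These genes were named after their values were seen. In WT_ST against CT their median was thus near that of the 10 ER genes (0.09), and in KO_ST against WT_ST it was closer to 0 than theirs (-0.14). Whether the lists differed was not tested.

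Striatal neuron, oligodendrocyte and plasma cell and B cell markers, like most of the 10 genes, had their highest summed mean in WT_ST. The summed level of 5 striatal neuron markers was 37.0 to 46.9 FPKM in CT, 45.5 to 59.4 in WT_ST and 39.6 to 47.4 in KO_ST, and 3 of the 5 (Drd2, Adora2a and Rgs9) passed the call as higher in WT_ST than in CT, Drd2 also in KO_ST against CT, while Rgs9 passed as lower in KO_ST than in WT_ST. The 5 plasma cell and B cell markers were each under 1 FPKM on average, at a summed level of 0.998 to 2.32 FPKM in CT, 1.29 to 2.56 in WT_ST and 1.04 to 1.24 in KO_ST, and 2 were tested. Jchain passed the call as higher in WT_ST than in CT and as lower in KO_ST than in WT_ST, and Sdc1 had estimates of -0.10 and -0.01. The 5 oligodendrocyte markers summed to 413 to 789 FPKM in CT, 434 to 696 in WT_ST and 469 to 623 in KO_ST. All 5 had higher estimates in WT_ST than in CT (median 0.24) and lower in KO_ST than in WT_ST (median -0.15), and 0 passed the call. The 5 astrocyte markers summed to 195 to 220, 176 to 180 and 170 to 211 FPKM, and Aqp4 and Slc1a3 passed the call as lower in WT_ST than in CT (-0.59 and -0.30 on the log2 scale), while Gfap and Aldh1l1 had estimates of 0.21 and 0.16. In KO_ST against CT, Aqp4 and Slc1a3 were at -0.41 and -0.26 and did not pass the call. The 5 endothelial markers summed to 61.0 to 65.4, 58.7 to 67.6 and 56.2 to 66.6 FPKM, and Cldn5 passed the call as lower than in CT in both stressed groups (-0.32 and -0.39), while Ly6c1 was at 0.22 and 0.23 and 2 of the 5 had higher estimates than in CT. The part of these cell types in the levels of the 10 genes was not tested.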

How the data were processed

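By the study's methods, mPFC RNA was made into stranded mRNA libraries and sequenced as paired ends, the alignment used HISAT2 against GRCm38 and StringTie gave the quantities (HISAT2 2.1.0, Bowtie2 2.3.4.1 and StringTie 1.3.4d in the submitters' processing notes). The authors deposited read counts per gene without normalization, and FPKM, scaled by transcript length and mapped reads. Libraries differed well beyond counting noise (lowest chi-square per degree of freedom 18.7).

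From these, log2(FPKM + 1) was quantile normalized over the 9 mice, and limma 3.58.1 in R 4.3.3 (two-sided moderated test, mean-variance trend) compared the 14370 genes with a mean of 30 reads or more over all 9 mice. Each fit held the mice of the groups compared, or all 9 for both stressed groups against CT. Benjamini-Hochberg adjustment covered all tested genes. The fit was tested on simulated data. A pseudocount of 1 shrinks the differences of low genes. Alternatives were edgeR 4.0.16 and DESeq2 1.42.0 on the counts, a pseudocount of 0.1, no quantile normalization, other filters, a replicate block, 1 fit of all mice and leaving out each mouse.

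The 10 genes and the lists were chosen with earlier results of these data known. Named were the 10, Fkbp5, pathway list genes called in a pairwise comparison, marker genes called, Ern1, Eif2ak3 and Atf6, and the 5 genes most correlated with Hspa5, and other genes of the lists were named after their values were seen. A further marker gene was left out and is not reported here.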

Additional observations from a re-analysis of the deposited data

How the results depend on the processing

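With 3 libraries a group, a 1.2-fold difference lay inside the 95% interval of 5 of the 10 genes in each pairwise comparison, and counting error was largest for Sdf2l1. Of 620 alternative fits of the 10 genes over 4 comparisons, 592 kept direction and call, 20 changed sign and 8 newly passed the call, and no estimate above 0.09 in size changed sign. The cause of the changes was not tested.

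In WT_ST against CT, 355 genes were called, and 544 with a pseudocount of 0.1, 535 in edgeR, 552 in DESeq2 and 700 in edgeR without a filter, with 277 to 542 when a mouse was left out. In KO_ST against CT, 512 became 843 in edgeR without a filter (410 to 734 without a mouse). In KO_ST against WT_ST, 287 became 445 with a pseudocount of 0.1 and 544 in edgeR without a filter (245 to 477). For both stressed groups, 383 became 635 with a pseudocount of 0.1, 635 in edgeR, 679 in DESeq2 and 852 in edgeR without a filter (302 to 639).

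Of the 10 genes, DESeq2 called 1 in WT_ST against CT (Sdf2l1). Leaving out a mouse gave 0 to 1 calls in WT_ST against CT, 0 in KO_ST against CT, 0 to 2 in KO_ST against WT_ST and 0 to 1 for both stressed groups. Of the wider lists, 2 were called in KO_ST against CT with a pseudocount of 0.1, in edgeR and in DESeq2, and 0 in KO_ST against WT_ST with a mean FPKM of at least 1. Without a mouse the calls were 1 to 2 in WT_ST against CT, 1 to 3 in KO_ST against CT, 0 to 2 in KO_ST against WT_ST and 0 to 2 for both stressed groups.

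The count of the 10 genes at p under 0.05 was added after the data were seen. It was 2 in DESeq2 in WT_ST against CT (1 to 4 without a mouse), and 0 in KO_ST against CT in edgeR, in edgeR without a filter and in DESeq2 (0 to 1). In KO_ST against WT_ST it was 3 in DESeq2 (2 to 5), and for both stressed groups 0 without quantile normalization, in edgeR with and without a filter, in DESeq2 and with the replicate block (0 to 3). With the replicate block it was 2 in KO_ST against WT_ST in place of 5. Same-numbered mice of different groups had a mean r of -0.01 (from -0.26 to 0.23, over 9 pairs) after group means were subtracted. The labels do not say whether the numbers pair the mice, and an r over all tested genes cannot settle it.

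The estimate of Pdia4 in WT_ST against CT became -0.0089 without quantile normalization, -0.0041 in edgeR, -0.0040 in DESeq2 and -0.0072 in edgeR without a filter, and ran from -0.036 to 0.065 without a mouse. Without a mouse, signs also turned for Hsp90b1 in WT_ST against CT (-0.020 to 0.078), Atf4 in KO_ST against CT (-0.036 to 0.146), Ddit3 in KO_ST against WT_ST (-0.070 to 0.084) and, for both stressed groups, Manf (-0.052 to 0.032), Hspa5 (-0.057 to 0.058), Atf4 (-0.011 to 0.171) and Hsp90b1 (-0.090 to 0.0085).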
